A study of Rattus norvegicus with 4 samples.

Results

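The genes described here encode the collagen chains that lie outside the cartilage fibril. They were chosen by name: every gene symbol of the form Col, number, a, number in the table of raw read counts, less 8 chains of the cartilage fibril and of hypertrophic cartilage (Col2a1, Col9a1, Col9a2, Col9a3, Col10a1, Col11a1, Col11a2 and Col27a1). This left 36 of the 44 collagen chain genes and of the 24005 genes in the table. By type they were 7 fibrillar chains, 6 chains of beaded filaments, 6 of the basement membrane network, 6 fibril-associated chains with interrupted helices (FACIT), 4 transmembrane chains and 7 others. The rule uses gene names and no measured value.

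Collagens are extracellular proteins whose chains are wound together into a helix rich in glycine and proline. Healthy hyaline cartilage is built on fibrils of type II with types IX and XI, whereas type I with types III and V forms the fibrils of tendon, ligament, bone, synovium and scar. Type VI forms beaded filaments, which in cartilage surround each chondrocyte. Type IV is the sheet of basement membranes, which underlie endothelium and ensheathe fat, muscle, pericytes and nerve. The replacement of hyaline by fibrous matrix is a known feature of damaged joint cartilage.

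Polyadenylated RNA was sequenced from cartilage in 4 samples of Sprague Dawley rats (outbred, male, 8 to 12 weeks old, 140 to 230 g). The osteoarthritis group has 2 libraries, which carry the disease label osteoarthritis and the treatment label XGS, the herbal preparation Xiaogu San. The control group has 2 libraries with the disease label healthy and the treatment label control. The disease model, named in the series title, is joint damage by monosodium iodoacetate, which blocks glycolysis. No library here is labelled as osteoarthritis without the preparation, so disease and preparation cannot be told apart. The design text speaks of normal mice where the labels say rat for all 4 samples. Joint, cartilage site and time after induction are not given in the labels, and no label ties a library to its own animal. Every p-value therefore refers to sample-to-sample spread that may be technical. In bulk tissue, fewer cells of a type and less RNA per cell cannot be told apart.

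The 2 osteoarthritis libraries stood apart from each other in markers of other tissues, and so did the 2 controls. Totals were 24492412 and 25994449 counts in osteoarthritis replicates 1 and 2, and 28156020 and 28270779 counts in control replicates 1 and 2. Values below are CPM, counts scaled to a common library size, on library sizes scaled by trimmed mean of M values (TMM). The 7 adipocyte markers summed to 7886 and 60.5 CPM in the osteoarthritis libraries, against 1631 and 663 CPM in the controls. The 7 tendon and ligament markers summed to 466 and 7580.0 CPM in the osteoarthritis libraries, against 2534 and 2516 CPM in the controls. As a check of the labelled tissue, all 8 measured chondrocyte markers (Acan, Comp, Hapln1 and others) were detected in all 4 libraries. So were all measured markers of marrow, bone, skeletal muscle and nerve, so detection alone does not tell the tissue. The chondrocyte markers summed to 564 and 7631 CPM in the osteoarthritis libraries and 10132 and 7674 CPM in the controls. In osteoarthritis replicate 2, Comp held 4468 CPM and Acan 2703 CPM of that sum. Of the 8 chondrocyte markers, 4 (50.0%, beside 26.5% of all genes) lay below both controls: Ucma, Chad, Hapln1 and Matn1. The 8 red cell and marrow genes summed to 493 and 961 CPM in osteoarthritis and 36298 and 30709 CPM in control. Every measured member of these lists was detected in at least 3 libraries. The part of these differences in the collagen results was not tested, except where values without 1 library are given.

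Before the values, 5 promoters are shown, those of the chains called higher both with osteoarthritis replicate 1 and with replicate 2 left out. Among them, Col4a1 and Col4a2 share theirs. RefSeq promoter windows of assembly GRCr8 hold 250 bases before and 50 bases after a gene's start. Capitals mark, on either strand, 5 letters that give the box of the same name, CCAAT. They also mark the GC box, whose letters are GGGCGG. Col4a1 and Col4a2, which encode the main chains of the basement membrane sheet, lie head to head on chromosome 16, with annotated starts 77 bases apart. The Col4a1 window is chr16:84885347-84885646 on the plus strand and the Col4a2 window chr16:84885471-84885770 on the minus strand, and they have 176 bases in common.
Col4a1: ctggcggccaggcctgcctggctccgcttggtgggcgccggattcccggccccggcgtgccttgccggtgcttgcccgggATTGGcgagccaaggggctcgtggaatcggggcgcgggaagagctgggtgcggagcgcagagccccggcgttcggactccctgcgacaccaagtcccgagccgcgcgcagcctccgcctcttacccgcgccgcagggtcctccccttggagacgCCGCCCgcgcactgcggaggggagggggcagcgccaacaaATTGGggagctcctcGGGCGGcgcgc
Col4a2: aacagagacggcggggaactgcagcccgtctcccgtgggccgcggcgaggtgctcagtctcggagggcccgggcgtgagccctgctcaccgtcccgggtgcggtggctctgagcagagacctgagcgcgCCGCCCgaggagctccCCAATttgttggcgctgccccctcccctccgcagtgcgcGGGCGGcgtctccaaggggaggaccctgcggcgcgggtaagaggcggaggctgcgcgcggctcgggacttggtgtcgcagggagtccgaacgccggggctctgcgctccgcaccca
The other windows belong to Col18a1 (chr20:11473395-11473694, plus strand), Col8a1 (chr11:56246532-56246831, plus strand) and Col5a3 (chr8:27625899-27626198, minus strand).
Col18a1: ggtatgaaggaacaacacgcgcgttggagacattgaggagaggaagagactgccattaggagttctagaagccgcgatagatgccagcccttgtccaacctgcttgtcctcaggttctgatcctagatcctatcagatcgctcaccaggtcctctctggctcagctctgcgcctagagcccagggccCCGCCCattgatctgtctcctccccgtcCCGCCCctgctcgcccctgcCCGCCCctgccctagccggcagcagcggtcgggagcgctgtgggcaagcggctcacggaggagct
Col8a1: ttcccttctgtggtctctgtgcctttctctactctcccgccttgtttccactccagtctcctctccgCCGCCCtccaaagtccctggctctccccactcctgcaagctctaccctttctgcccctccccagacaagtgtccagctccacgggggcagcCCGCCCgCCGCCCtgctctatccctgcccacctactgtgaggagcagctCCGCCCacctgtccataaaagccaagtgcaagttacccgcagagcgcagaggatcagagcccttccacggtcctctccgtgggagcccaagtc
Col5a3: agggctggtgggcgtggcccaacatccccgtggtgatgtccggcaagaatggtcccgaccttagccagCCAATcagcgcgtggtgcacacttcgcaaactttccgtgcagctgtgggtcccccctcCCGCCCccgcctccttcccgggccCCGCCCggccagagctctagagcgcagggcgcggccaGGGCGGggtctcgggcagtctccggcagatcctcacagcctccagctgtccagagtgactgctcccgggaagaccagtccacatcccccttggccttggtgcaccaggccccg
Of the 36 genes, 29 had a window in that table, with 32 windows in all. A GC box on either strand was found in 17 of the 32 (53.1%) and in 33.1% of all 33469 windows. A CCAAT box was found in 10 (31.2%), against 37.5% of all windows, and a TATA box (TATAAA, either strand) in 3 (9.38%), against 14.2% of all windows. All 5 windows shown held a GC box, but those of Col4a1 and Col4a2 are the same boxes in the bases they have in common. Of the 13 tested genes with a window whose osteoarthritis libraries both exceeded both controls, 9 held one, this pair included. A link between GC boxes and the fold changes was not tested. These matches are descriptions of letters and not of binding.

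Collagen chains outside the cartilage fibril took a larger share of the raw counts in the osteoarthritis libraries, most of all in replicate 2. They held 5.96% (95% Wilson interval 5.95 to 5.96) and 16.8% (16.78 to 16.81) of all counts in osteoarthritis replicates 1 and 2, against 1.86% (1.85 to 1.86) and 4.70% (4.70 to 4.71) in control replicates 1 and 2. The intervals cover counting error only. Osteoarthritis replicate 1 and control replicate 2 thus lay close to each other. On TMM-scaled library sizes the 36 genes summed to 49472 and 188666 CPM in osteoarthritis and 18422 and 51011 CPM in control. In CPM, osteoarthritis replicate 1 was below control replicate 2, so the groups overlapped. The 8 cartilage fibril and hypertrophic chains ran the other way, with 0.467% and 0.283% of the counts in the osteoarthritis libraries and 1.51% and 2.76% in the controls. Col1a1 alone made up 40.9% and 54.5% of the counts of the 36 genes in osteoarthritis and 38.6% and 65.1% in control. All 36 genes were detected in both osteoarthritis libraries, and 31 and 34 in the controls. Of all 24005 genes, 19272 and 17725 were detected in the osteoarthritis libraries and 14770 and 15739 in the controls. More genes were thus detected in osteoarthritis over the whole table too.

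**Figure D1:**
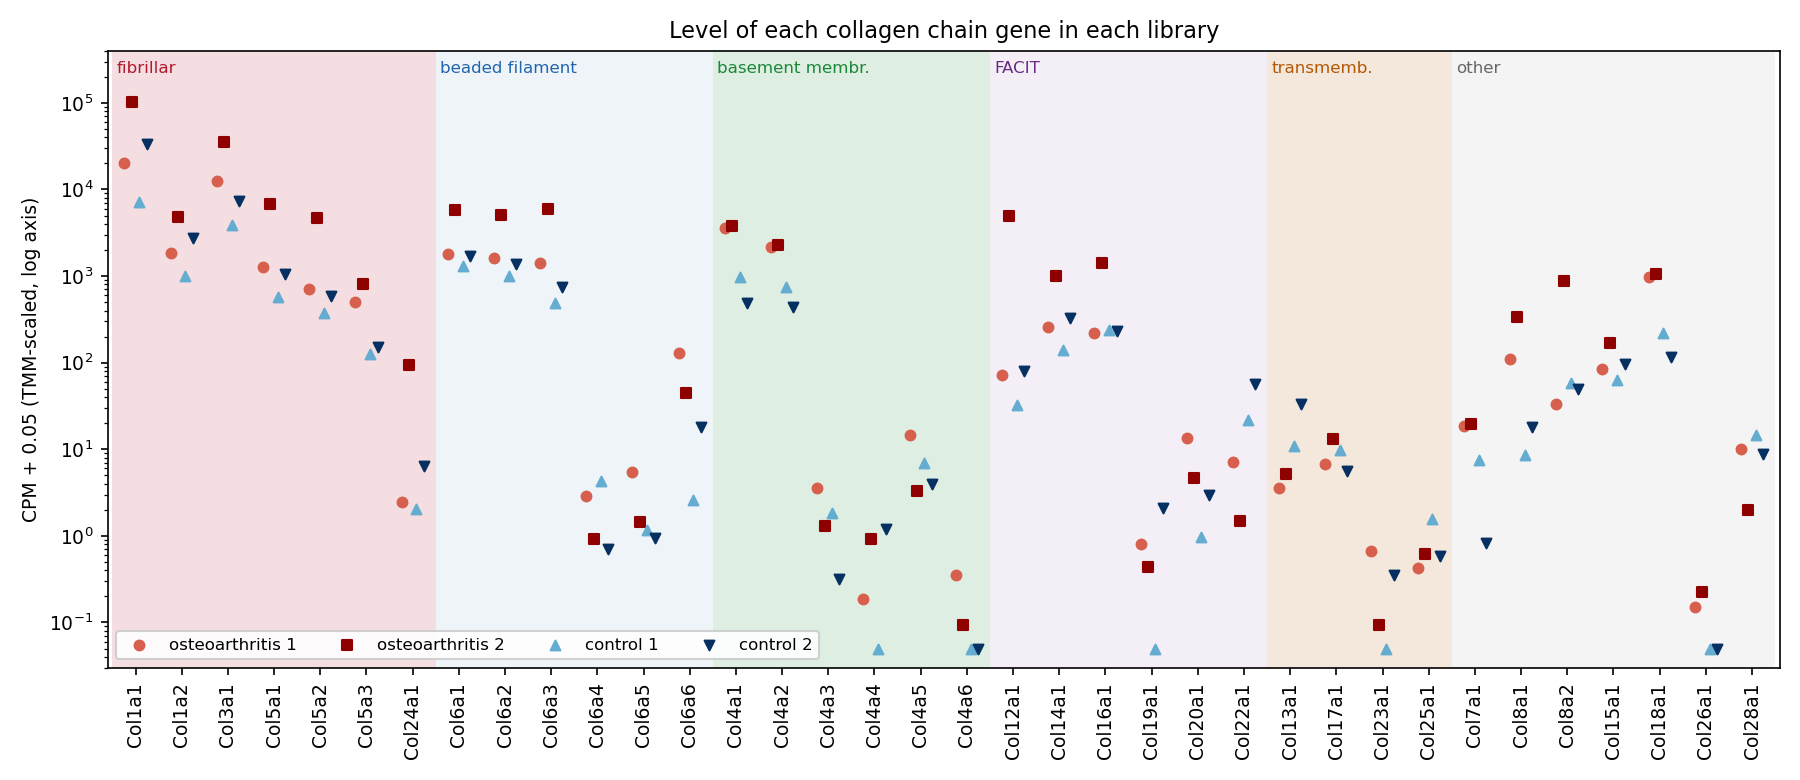
Level of the 36 collagen chain genes in every library, as CPM plus 0.05 on a log axis, grouped by collagen type. Points are single libraries (red osteoarthritis, blue control). Col4a1, Col4a2, Col18a1 and Col8a1 lie above both control points in either osteoarthritis library, while Col12a1, Col24a1 and Col8a2 are high in osteoarthritis replicate 2 alone.

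Of the 36 genes, 33 passed the filter on low counts and were tested. The quasi-likelihood test of edgeR, adjusted over 15282 genes by Benjamini and Hochberg, gave no call: 0 of the 33 were called higher and 0 lower, against 0% of all genes in either direction. Their adjusted p ran from 0.0876 to 0.973. At an unadjusted p under 0.05, 9 were higher (12.2% of all genes) and 2 lower (11.2% of all genes). DESeq2 called 13 higher and 2 lower, where it called 7.24% of all genes higher and 8.26% lower. With no filter on low counts the quasi-likelihood test called 5 higher (3.35% of all genes) and 2 lower (3.72% of all genes). Of the 33, 26 had a log2 fold change (osteoarthritis over control) above 0, as had 55.1% of all genes tested. The median was 1.75, beside 0.15 over all genes. Without osteoarthritis replicate 2, 22 of the 33 were above 0 and the median was 0.35, beside 0.06 over all genes. For 15 of the 33 (45.5%, beside 30.0% of all genes) each osteoarthritis library exceeded each control, and for 2 (6.06%, beside 26.5% of all genes) each was below each control. In the other 16 the groups overlapped. For 1 gene taken alone, the smallest exact permutation p that 2 and 2 libraries allow is 0.333, and such tests were left out.

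**Figure D2:**
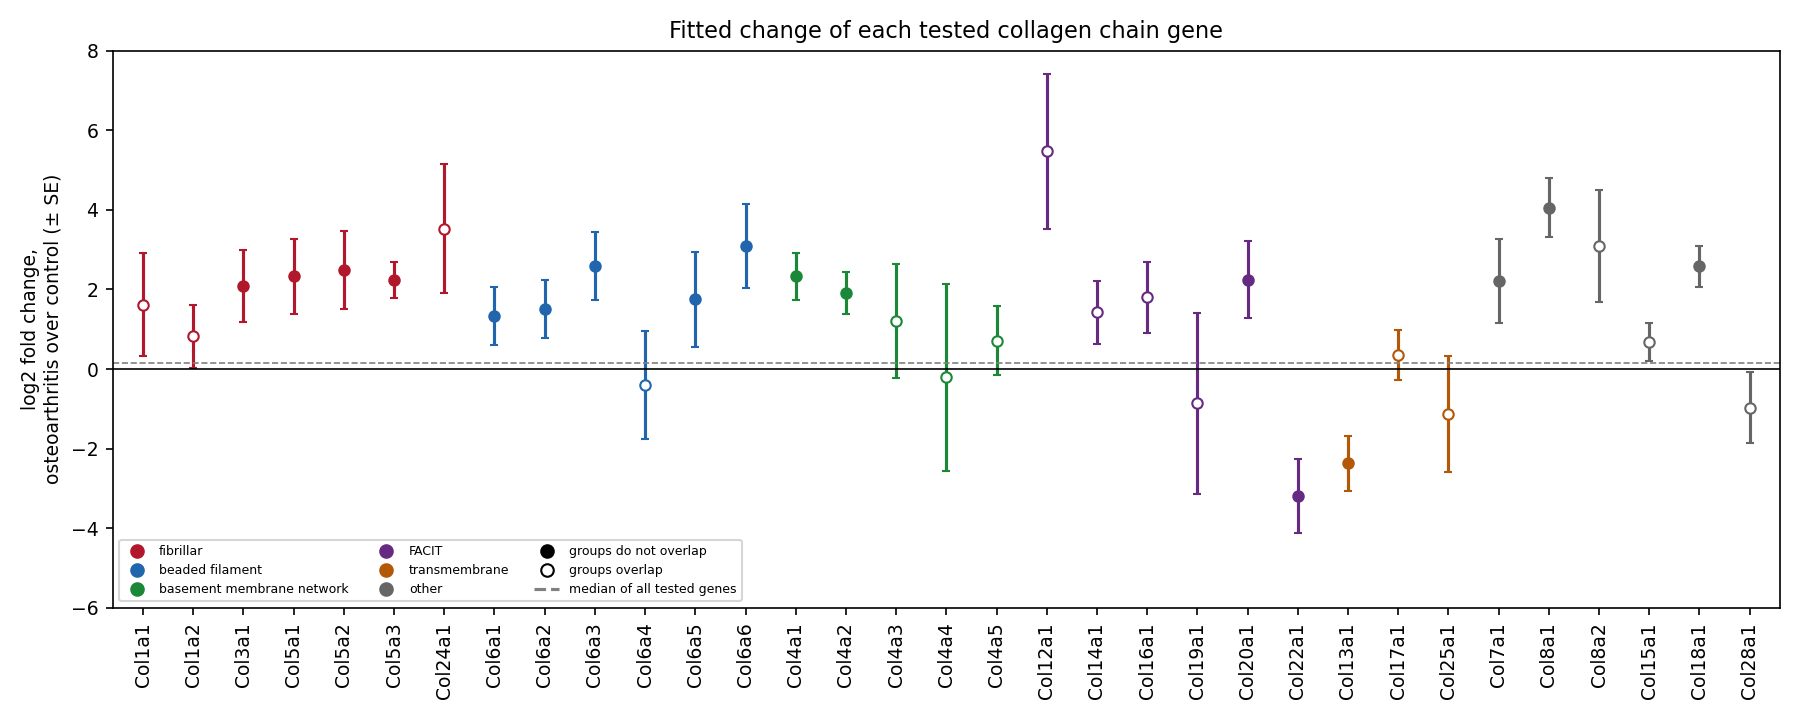
Fitted log2 fold change, osteoarthritis over control, of the 33 tested collagen chain genes with its standard error. Filled points are genes whose libraries do not overlap between groups, open points those that overlap, and the dashed line is the median of all tested genes, 0.15. Of the 33, 26 lie above 0 and none passed the quasi-likelihood test.

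Which osteoarthritis library was used decided many single values. In 8 of the 33 genes (24.2%, beside 3.99% of all genes tested) osteoarthritis replicate 2 was more than 4-fold above replicate 1: Col1a1, Col5a1, Col5a2, Col24a1, Col6a3, Col12a1, Col16a1 and Col8a2. In 8 others (24.2%, beside 13.2% of all genes) replicate 1 was more than 2-fold above replicate 2: Col6a4, Col6a5, Col6a6, Col4a3, Col4a5, Col20a1, Col22a1 and Col28a1. With osteoarthritis replicate 1 left out, that test called 16 of the genes higher (7.00% of all genes) and 1 lower (6.21% of all genes). With replicate 2 left out instead, it called 6 higher (3.52% of all genes) and 1 lower (4.76% of all genes). The genes called both times were 5 higher ones, Col4a1, Col4a2, Col5a3, Col8a1 and Col18a1, and 1 lower one, Col22a1. Of all genes, 1.58% were called higher both times and 3.44% lower, and both fits use the same controls. In these fits the lone osteoarthritis sample is assumed to vary like the controls. Without either control replicate the test called 0 of all genes.

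**Figure D3:**
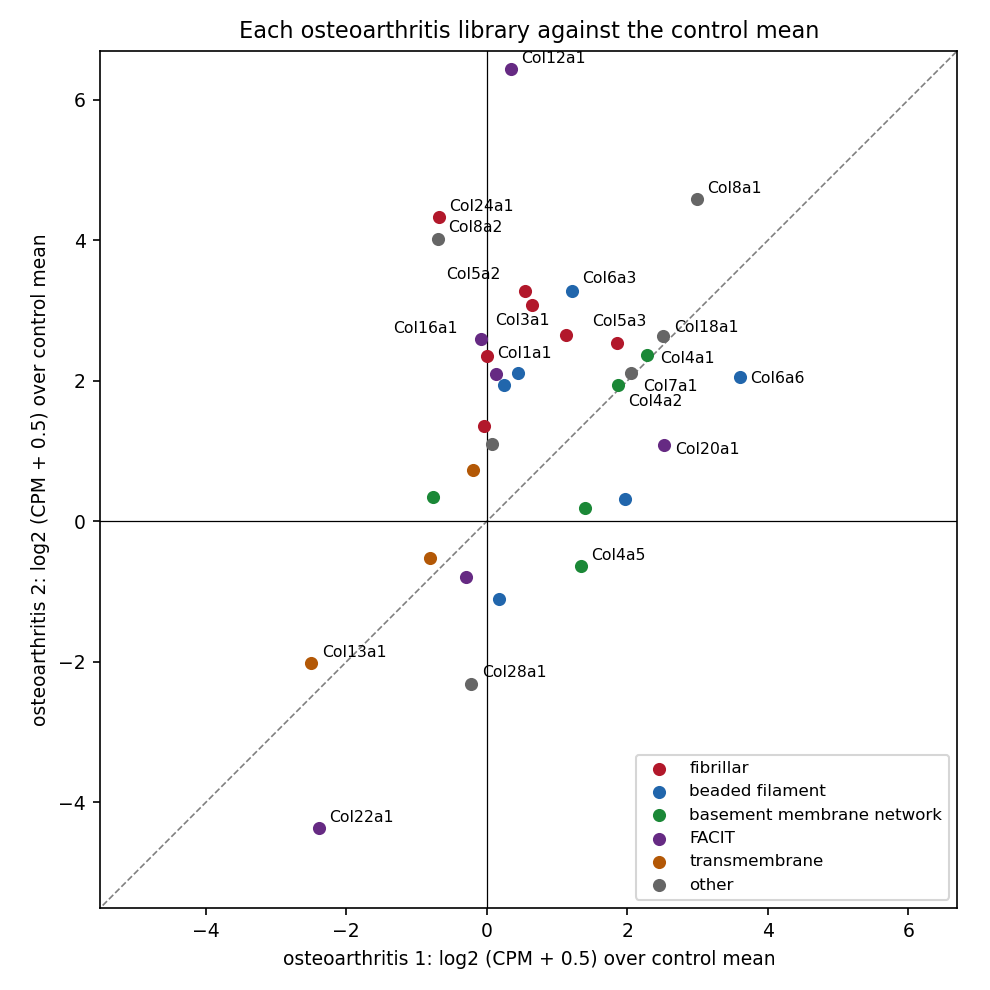
Each tested collagen chain gene in osteoarthritis replicate 1 (x) and replicate 2 (y), as log2 of CPM plus 0.5 over the mean of the controls, coloured by type. On the dashed line both libraries are alike. Col4a1, Col4a2, Col18a1 and Col7a1 lie near the line, Col12a1, Col24a1 and Col8a2 far above it, and Col6a6, Col20a1 and Col4a5 below it.

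The fibrillar chains were the most abundant, and their log2 fold changes were all above 0, but the type I genes overlapped between groups. The 7 fibrillar genes had a median log2 fold change of 2.24, and 0.55 without osteoarthritis replicate 2. Of the 7, 4 (57.1%, beside 30.0% of all genes) lay above both controls. Osteoarthritis replicate 2 exceeded replicate 1 in all 7, as it did in 7860 of 15282 genes. The medians of the 7 against the control mean were 0.55 for replicate 1 and 2.65 for replicate 2. Col1a1, the main chain of type I collagen, had 20226 and 102855 CPM in the osteoarthritis libraries, against 7108 and 33210.4 CPM in the controls. The lower osteoarthritis library was below the higher control. Its log2 fold change was 1.61 ± 1.29 (SE, adjusted p = 0.507), 0.00 without osteoarthritis replicate 2 and 2.27 without replicate 1. In counts as deposited it ranked first of all genes in both osteoarthritis libraries, and 13th and second in the controls. Col1a2, which joins Col1a1 in the type I helix, had 1823 and 4801 CPM in osteoarthritis and 1003 and 2732 CPM in control (log2 fold change 0.83 ± 0.79), again with overlap. Markers of osteoblasts and osteocytes summed to 60.7 and 110.1 CPM in osteoarthritis and 959.7 and 4445 CPM in control. Control replicate 2 was thus the higher control in these markers and in both type I genes. The part of bone cells in the type I values was not tested.

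Col3a1, the chain of type III collagen in elastic and healing tissues, had 12400.2 and 35701 CPM in the osteoarthritis libraries, against 3886 and 7457 CPM in the controls. The groups did not overlap, with a log2 fold change of 2.08 ± 0.91 (adjusted p = 0.247), 1.13 without osteoarthritis replicate 2. Type V collagen starts and limits the width of type I fibrils. Col5a1 had 1263 and 6849 CPM in osteoarthritis and 567 and 1048 CPM in control (2.33 ± 0.95). Col5a2 had 705 and 4673 CPM in osteoarthritis and 373 and 589 CPM in control (2.48 ± 0.98). For both, osteoarthritis replicate 1 lay only a little above the higher control, and without replicate 2 the log2 fold change was 0.65 for Col5a1 and 0.55 for Col5a2. Col5a3, a less widely used type V chain, had 507 and 816 CPM in osteoarthritis and 127 and 154 CPM in control. It had the smallest adjusted p of the fibrillar genes (log2 fold change 2.24 ± 0.45, adjusted p = 0.0982) and kept a log2 fold change of 1.86 without osteoarthritis replicate 2. Col24a1, a minor fibrillar chain known from bone and cornea, had 2.41 and 93.6 CPM in osteoarthritis and 2.01 and 6.33 CPM in control. It was high in osteoarthritis replicate 2 alone (3.52 ± 1.62), and without that library its log2 fold change was -0.79.

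Beaded filament chains fell into an abundant set of 3 and a set of 3 at lower levels. The 6 had a median log2 fold change of 1.63, and 0.83 without osteoarthritis replicate 2. Of the 6, 5 lay above both controls, as did 30.0% of all genes. Col6a1 had 1786 and 5807 CPM in the osteoarthritis libraries, against 1311 and 1706 CPM in the controls (1.33 ± 0.73, adjusted p = 0.338). Col6a2 had 1616 and 5131 CPM in osteoarthritis and 989.6 and 1373 CPM in control (1.51 ± 0.73). Both are short chains of the type VI helix, and both stood in osteoarthritis replicate 1 just above the higher control. Without osteoarthritis replicate 2 the log2 fold change was 0.24 for Col6a1 and 0.45 for Col6a2. Col6a3, the long chain, which carries many more von Willebrand factor A domains, had 1430.4 and 5975 CPM in osteoarthritis and 486 and 747 CPM in control. Its log2 fold change was 2.59 ± 0.85 (adjusted p = 0.168), 1.21 without osteoarthritis replicate 2 and 3.22 without replicate 1. Col6a6, an alternative to the long chain, had 130.4 and 44.6 CPM in osteoarthritis and 2.53 and 18.1 CPM in control. Here replicate 1 was the higher osteoarthritis library, with a log2 fold change of 3.09 ± 1.05 (adjusted p = 0.176). Its neighbours Col6a5 and Col6a4 stayed at or below 5.39 CPM in all 4 libraries. Col6a5 lay above both controls (log2 fold change 1.75 ± 1.19) and Col6a4 did not (-0.40 ± 1.36).

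In the basement membrane network only Col4a1 and Col4a2 were abundant, and they were alike in both osteoarthritis libraries. Col4a1 had 3577 and 3797 CPM in the osteoarthritis libraries, against 972 and 495 CPM in the controls. The groups were well apart, at a log2 fold change of 2.33 ± 0.60 (adjusted p = 0.125). Col4a2, its partner, had 2178 and 2292 CPM in osteoarthritis and 755 and 441 CPM in control, a log2 fold change of 1.90 ± 0.53 (adjusted p = 0.137). Without osteoarthritis replicate 1 and without replicate 2 the log2 fold changes were 2.34 and 2.29 for Col4a1 and 1.90 and 1.87 for Col4a2. The 4 minor chains were scarce. Col4a5, of the basement membranes of kidney and muscle among others, had 14.4 and 3.28 CPM in osteoarthritis and 6.90 and 3.87 CPM in control, with overlap. Col4a3 stayed at or below 3.53 CPM and Col4a4 at or below 1.15 CPM. Col4a6 had 9 and 1 counts in the osteoarthritis libraries and 0 in both controls, where a count of 0 allows up to 0.106 and 0.115 CPM (3 counts), and was not tested.

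Chains of the basement membrane zone outside type IV went with it in part. Col18a1, a proteoglycan-type collagen whose end fragment is endostatin, had 963 and 1049 CPM in osteoarthritis and 221 and 115 CPM in control. Its log2 fold change was 2.58 ± 0.52 (adjusted p = 0.0963), and 2.61 and 2.52 without osteoarthritis replicates 1 and 2. Its relative Col15a1 had 83.6 and 170.3 CPM in osteoarthritis and 62.8 and 95.6 CPM in control, with overlap (0.68 ± 0.47). Col7a1, the chain of anchoring fibrils below epithelia, had 18.5 and 19.4 CPM in osteoarthritis and 7.39 and 0.767 CPM in control (2.21 ± 1.05). Of the other genes of the basement membrane, 19 of 20 laminin, nidogen, perlecan and related genes were tested, and 0 were called by the quasi-likelihood test. DESeq2 called 12 of them higher and 0 lower, beside 7.24% and 8.26% of all genes. Of the 19, 14 (73.7%, beside 30.0% of all genes) lay above both controls and 1, Fbln1, below both (beside 26.5% of all genes), with a median log2 fold change of 1.60. Lamb1, a laminin chain, had 184 and 235 CPM in osteoarthritis and 31.8 and 20.8 CPM in control (2.99 ± 0.40, adjusted p = 0.0824). Nid1, which links laminin to type IV collagen, had 395 and 621 CPM in osteoarthritis and 73.0 and 63.1 CPM in control (2.90 ± 0.44). Lama2 had 58.6 and 72.6 CPM in osteoarthritis and 16.2 and 12.2 CPM in control.

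Markers of cells that lie on such membranes were read beside these genes. The 7 endothelial markers summed to 1301 and 785 CPM in the osteoarthritis libraries, against 919 and 417 CPM in the controls. Of the 7, 3 (42.9%, beside 30.0% of all genes) lay above both controls, with a median log2 fold change of 0.69. The 7 pericyte and smooth muscle markers summed to 3838 and 2493 CPM in osteoarthritis and 1853 and 858 CPM in control. Of these, 4 (57.1%, beside 30.0% of all genes) lay above both controls, and the median of the 7 was 1.32. The 7 Schwann cell and nerve markers summed to 763 and 263 CPM in osteoarthritis and 253 and 299.7 CPM in control. Of these, 0 lay above both controls, beside 30.0% of all genes. Every member of these 3 lists was detected in all 4 libraries. The adipocyte list, given above, summed to 7886 and 60.5 CPM in the osteoarthritis libraries. The part of vessel, pericyte, nerve or fat cells in the type IV result was not tested.

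Col8a1 and Col8a2 form the short-chain network known from the cornea and from vessel walls, and they differed from each other. Col8a1 had 110.1 and 334 CPM in the osteoarthritis libraries, against 8.62 and 18.1 CPM in the controls. It had the smallest adjusted p of the 33 genes, with a log2 fold change of 4.05 ± 0.74 (16.6-fold, adjusted p = 0.0876), 3.04 without osteoarthritis replicate 2. Col8a2 had 32.9 and 878 CPM in osteoarthritis and 57.6 and 49.3 CPM in control. Osteoarthritis replicate 1 was the lowest of the 4 libraries and replicate 2 the highest (log2 fold change 3.09 ± 1.40, and -0.70 without replicate 2).

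FACIT chains bind to the surface of fibrils, and this type held both the highest and the lowest log2 fold change of the 33 genes. The 6 had a median of 1.62, and 0.030 without osteoarthritis replicate 2. Of them, 1 lay above both controls and 1 below, beside 30.0% and 26.5% of all genes. Col12a1, which coats type I fibrils in tendon and ligament, had 71.4 and 4925 CPM in osteoarthritis and 32.3 and 80.0 CPM in control. Its log2 fold change of 5.48 ± 1.95 (adjusted p = 0.187) came from osteoarthritis replicate 2, as it was 0.35 without that library. Col14a1, a close relative, had 256 and 996 CPM in osteoarthritis and 141 and 324 CPM in control (1.43 ± 0.79, and 0.14 without osteoarthritis replicate 2). Col16a1, found in fibrils near cells and in cartilage, had 223 and 1424 CPM in osteoarthritis and 236 and 235 CPM in control (1.80 ± 0.89, and -0.08 without osteoarthritis replicate 2). All 3 overlapped between groups, with osteoarthritis replicate 1 among or below the controls.

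Col20a1 had 13.3 and 4.58 CPM in osteoarthritis and 0.915 and 2.88 CPM in control, so both osteoarthritis libraries were higher (2.24 ± 0.97, adjusted p = 0.245). Col22a1, a chain of tissue junctions such as that of muscle and tendon, and also of the articular cartilage surface, had 7.09 and 1.43 CPM in osteoarthritis and 21.8 and 56.5 CPM in control. Both osteoarthritis libraries were below both controls, with a log2 fold change of -3.19 ± 0.92 (adjusted p = 0.146). It was -4.85 without osteoarthritis replicate 1 and -2.46 without replicate 2. The 6 skeletal muscle markers summed to 127 and 302 CPM in osteoarthritis and 2237 and 95.7 CPM in control. Their part in the Col22a1 result was not tested. Col19a1 had 22 and 9 counts in osteoarthritis and 0 and 54 in control.

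The transmembrane chains, which span the cell membrane with the helix outside, were scarce in all libraries. Col13a1, of cell adhesion sites and the neuromuscular junction, had 3.53 and 5.10 CPM in osteoarthritis and 10.98 and 33.4 CPM in control, so both osteoarthritis libraries were lower (-2.36 ± 0.69, adjusted p = 0.148). It was the other gene, beside Col22a1, below both controls. The 9 osteoblast and osteocyte markers had 7 genes below both controls, beside 26.5% of all genes. They summed to 60.7 and 110.1 CPM in osteoarthritis and 959.7 and 4445 CPM in control. Their part in the Col13a1 result was not tested. Col17a1, of the hemidesmosomes that fix epithelia, had 6.68 and 13.1 CPM in osteoarthritis and 9.82 and 5.60 CPM in control, with overlap (0.36 ± 0.63). Col25a1, known from motor neurons and muscle, was at or below 1.51 CPM, and Col23a1 had 18 and 1 counts in osteoarthritis and 0 and 8 in control and was not tested. Among the remaining chains, Col28a1, a von Willebrand factor A domain chain of peripheral nerve, had 9.90 and 1.94 CPM in osteoarthritis and 14.5 and 8.67 CPM in control, with overlap (-0.97 ± 0.88). Col26a1 had 3 and 4 counts in the osteoarthritis libraries, 0 in both controls, and was not tested. In all, 9 of the 36 genes averaged below 5 CPM in both groups, and their values ran from 0 to 5.39 CPM.

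Levels of different genes were compared per length, as FPKM, which divides counts by gene length and library total, from the authors' table. Col1a1 ranked first and Col3a1 second of the 36 genes in all 4 libraries, at 4179 and 15717 FPKM for Col1a1 in osteoarthritis and 1231 and 5257 FPKM in control. The next in order was Col4a1 in osteoarthritis replicate 1 at 655 FPKM and Col6a1 in replicate 2 at 1279.9 FPKM. In the controls it was Col6a1 in replicate 1 at 328 FPKM and Col1a2 in replicate 2 at 564 FPKM. Ratios of partner chains were steadier than the levels. The ratio of Col5a1 to Col5a2 FPKM was 1.60 and 1.31 in osteoarthritis and 1.35 and 1.58 in control. That of Col6a1 to Col6a2 was 1.06 and 1.08 in osteoarthritis and 1.27 and 1.19 in control. The Col4a1 to Col4a2 ratio was 1.61 and 1.63 in osteoarthritis and 1.27 and 1.10 in control, so that both osteoarthritis libraries lay above both controls.

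Other ratios moved more. Col6a1 to Col6a3 stood at 3.15 and 2.45 in the osteoarthritis libraries, against 6.80 and 5.76 in the controls, without overlap. Col8a1 to Col8a2 was 5.27 and 0.598 in osteoarthritis and 0.236 and 0.580 in control. Col1a1 to Col1a2, partners in type I, was 8.50 and 16.4 in osteoarthritis and 5.43 and 9.32 in control. This ratio depends on the gene lengths implied by the FPKM table, 5826 bases for Col1a1 and 4465 for Col1a2. The Col3a1 to Col1a1 ratio was 0.749 and 0.424 in osteoarthritis and 0.668 and 0.274 in control, with overlap.

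**Figure D4:**
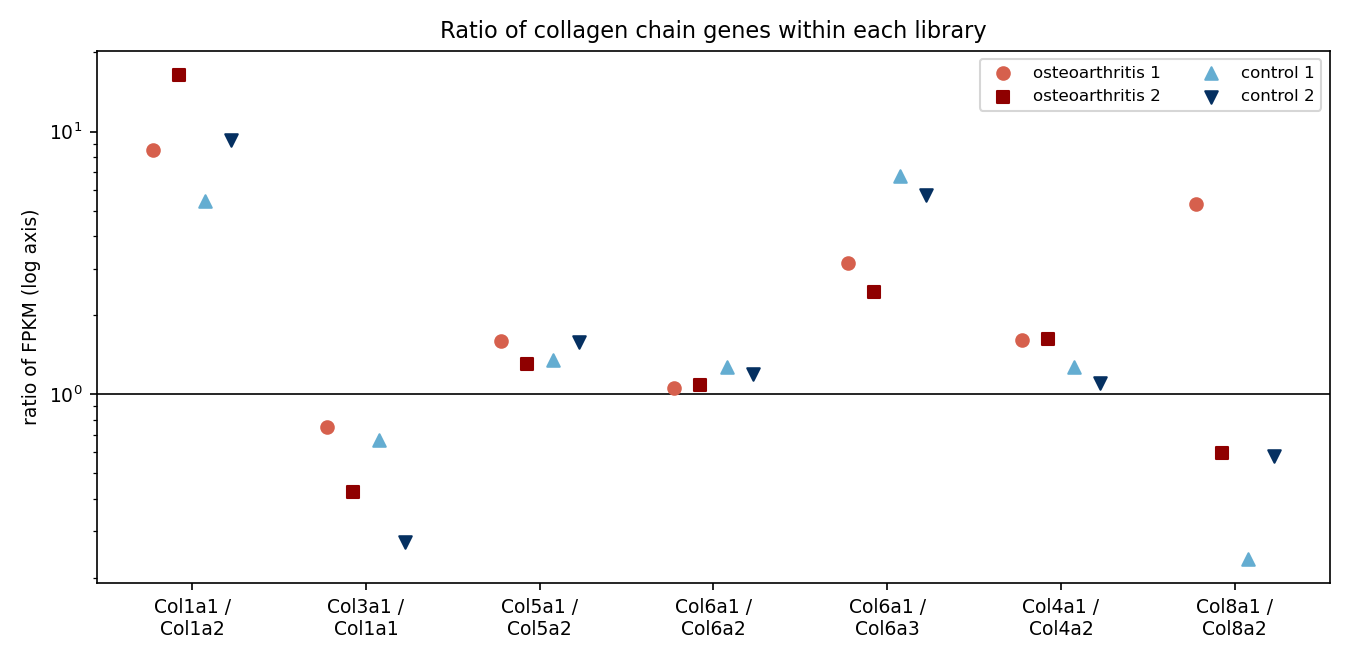
Ratio of the FPKM of collagen chain genes within each library, on a log axis, for 7 pairs of chains. Points are single libraries (red osteoarthritis, blue control), and the line marks equal levels. The ratios of Col5a1 to Col5a2, Col6a1 to Col6a2 and Col4a1 to Col4a2 stay between 1.06 and 1.63, while Col8a1 to Col8a2 runs from 0.236 to 5.27.

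Chains encoded side by side could be followed as neighbours in the RefSeq gene table. There were 7 adjacent pairs among the 36 genes, with no other protein-coding gene starting or ending in the gap. Col4a1 and Col4a2 had log2 ratios of osteoarthritis replicate 2 over replicate 1 of 0.09 and 0.07. For Col6a1 and Col6a2 these were 1.70 and 1.67, and for Col3a1 and Col5a2 1.53 and 2.73. In the row of Col6a6, Col6a5 and Col6a4 they were -1.54, -1.65 and -1.28, so that all 3 were higher in osteoarthritis replicate 1. The scarce head-to-head pair Col4a3 and Col4a4 went apart, at -1.20 and 1.10, on 104 and 29 counts of Col4a3 and 4 and 20 counts of Col4a4 in the osteoarthritis libraries. The head-to-head pair Col4a6 and Col4a5 on the X chromosome had 9 and 1 counts of Col4a6, which was not tested, and a log2 ratio of -1.98 for Col4a5.

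Enzymes and receptors of collagen were read from lists beside the chains. Of 34 tested genes for collagen hydroxylation, folding, processing and crosslinking, 9 (26.5%, beside 30.0% of all genes) lay above both controls and 4 (11.8%, beside 26.5% of all genes) below both, with a median log2 fold change of 0.80. The quasi-likelihood test called 0, and DESeq2 called 4 higher and 1 lower, beside 7.24% and 8.26% of all genes. PCOLCE2, an enhancer of procollagen C-proteinase, had 6.07 and 7.35 CPM in the osteoarthritis libraries, against 133 and 118 CPM in the controls (-4.23 ± 0.35, adjusted p = 0.0824). Adamts14, a procollagen N-proteinase, had 27.5 and 60.1 CPM in osteoarthritis and 10.3 and 13.0 CPM in control (1.91 ± 0.49). Loxl2, a crosslinking oxidase, had 81.7 and 359 CPM in osteoarthritis and 31.8 and 41.8 CPM in control (2.58 ± 0.75). Of 14 tested collagen receptor genes, 3 (21.4%, beside 30.0% of all genes) lay above both controls and 2 (14.3%, beside 26.5% of all genes) below both. The quasi-likelihood test called 0 of the 14, and DESeq2 4 higher and 2 lower, beside 7.24% and 8.26% of all genes. Itga10, the integrin chain that chondrocytes use for type II collagen, had 13.4 and 41.1 CPM in osteoarthritis and 103 and 104 CPM in control (-1.92 ± 0.58). Itga1, which binds type IV collagen, had 29.5 and 22.9 CPM in osteoarthritis and 6.55 and 0.921 CPM in control (2.81 ± 0.95). Gp6, the collagen receptor of platelets, had 0.509 and 5.06 CPM in osteoarthritis and 27.6 and 22.0 CPM in control (-3.16 ± 1.08).

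Genes for proteins that bind fibrils were high mainly in osteoarthritis replicate 2. Of 13 tested fibril-associated glycoproteins and proteoglycans, all 13 were higher in osteoarthritis replicate 2 than in replicate 1, as were 7860 of 15282 genes. Only 3 of the 13 (23.1%, beside 30.0% of all genes) lay above both controls, and in 10 the groups overlapped. The median of the 13 against the control mean was -1.31 in replicate 1 and 2.00 in replicate 2. The quasi-likelihood test called 0 of them, and DESeq2 called 3 higher, beside 7.24% of all genes. Postn, periostin, had 823 and 4449 CPM in osteoarthritis and 41.9 and 91.7 CPM in control (5.30 ± 1.09, adjusted p = 0.0982). Of 7 tendon and ligament markers, 6 were higher in osteoarthritis replicate 2 than in replicate 1, beside 7860 of 15282 genes. The median of the 7 against the control mean was -1.74 in replicate 1 and 2.42 in replicate 2. Tnmd, tenomodulin, had 23.6 and 381 CPM in osteoarthritis and 10.8 and 7.40 CPM in control. Col12a1, Col24a1 and Col8a2 were thus high in the library that was also high in these markers. Fmod and Kera are in both lists. That library also exceeded osteoarthritis replicate 1 in 6 of the 8 chondrocyte markers, with 2 lower. The 8 summed to 7631 CPM in replicate 2, against 564 CPM in replicate 1 and 10132 and 7674 CPM in the controls. Comp held 4468 CPM and Acan 2703 CPM of the replicate 2 sum, while 4 of the 8 lay below both controls. Col2a1, the type II chain and outside that list, was lower in replicate 2. It had 3431 and 385 CPM in osteoarthritis and 13919 and 26813 CPM in control. The part of tendon, ligament or cartilage cells in the Col12a1, Col24a1 and Col8a2 values was not tested. The 8 markers of synovial and loose connective tissue fibroblasts summed to 1213 and 1648 CPM in osteoarthritis and 3624 and 1906 CPM in control. Of these, 3 lay above both controls and 3 below, beside 30.0% and 26.5% of all genes.

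**Figure D5:**
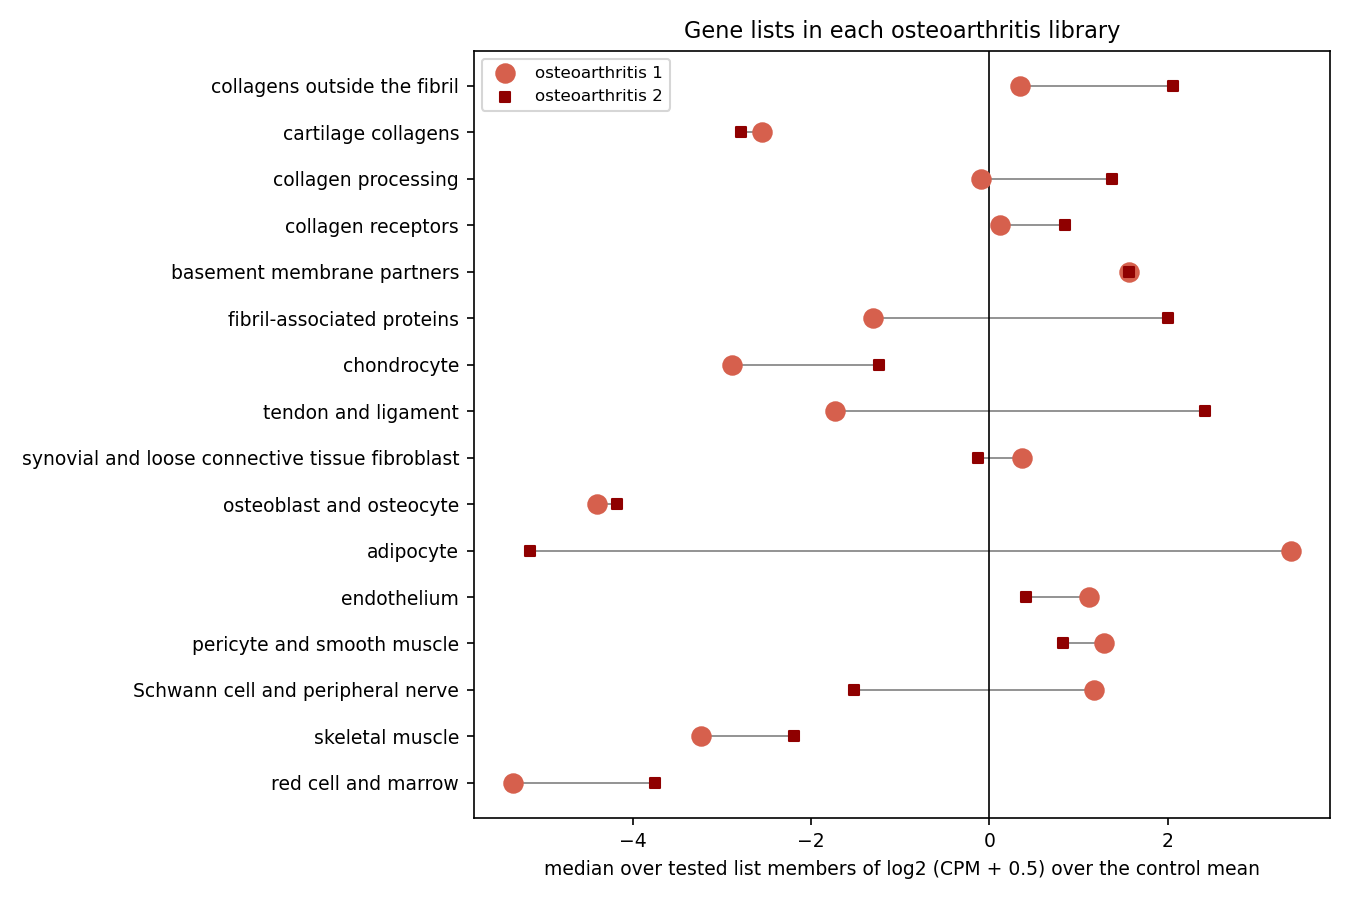
Median over the tested members of each list of log2 of CPM plus 0.5 over the control mean, in osteoarthritis replicate 1 (circles) and replicate 2 (squares). The collagen chains outside the fibril stand at 0.34 and 2.06, the basement membrane partners at 1.57 in both libraries, and the tendon and ligament markers at -1.74 and 2.42.

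Cartilage fibril and hypertrophic chains, the counterpart left out of the choice, ran the other way in most genes. In 6 of the 8 (beside 26.5% of all genes) each osteoarthritis library was below each control and in 0 (beside 30.0%) above, with a median log2 fold change of -2.71. Col10a1, the hypertrophic chain, had 1.46 and 0.259 CPM in osteoarthritis and 59.6 and 291 CPM in control (-7.64 ± 1.29, adjusted p = 0.0835). The log2 fold change was -4.67 ± 1.02 for Col9a2 and -2.48 ± 0.63 for Col11a2, both of cartilage fibrils. Col11a1, of cartilage fibrils but also made by fibroblasts, had 119 and 2360.3 CPM in osteoarthritis and 196 and 531 CPM in control, with overlap. A difference between the 2 sets of collagens was not tested.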

How the data were processed

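The data are poly(A) RNA libraries of rat cartilage, 2 labelled osteoarthritis and XGS and 2 labelled healthy and control. The authors deposited raw read counts per gene and FPKM values for the same libraries. The submitters' processing notes name fastp and TopHat without versions and the build hg38, a human build. The sources used here do not name counter, annotation, strandedness or a rat build, so overlapping genes cannot be told apart. All 67506 deposited FPKM values above 0 were the count divided by a fixed gene length and by the column's sum (relative tolerance 1e-06), so FPKM is no independent measurement.

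Counts were tested with edgeR 4.0.16 (filterByExpr, 15282 genes, TMM, quasi-likelihood F test, two-sided, Benjamini-Hochberg, threshold 0.05) in R 4.3.3. Standard errors are the fold change over the root of F. Ratios of single libraries use CPM plus 0.5. DESeq2 1.42.0, limma 3.58.1 on log2(FPKM + 1) and log2(FPKM + 0.1), other scalings and filters, and fits without each library were alternatives. Figures used matplotlib 3.10.9.

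On simulated data for osteoarthritis against control at the estimated dispersions (15278 genes), edgeR found 38 of 100 genes with a 16-fold change. It found 1 of 100 with a 4-fold change and made 3 false calls. DESeq2 found 85 and 36 of these and made 112 false calls. At a set dispersion of 0.1 (15282 genes), edgeR found 100 and 74 of them with 4 false calls, and DESeq2 100 and 80 with 12. Changed genes were drawn only from those above a minimum mean count, so these numbers do not cover the scarcest genes. At the estimated dispersions, the 0 calls of edgeR thus do not show that changes were absent.

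Members, types and lists were chosen with earlier results of these data known. Members averaging at least 5 CPM in the higher group get values in every library, others a range or, from 20 counts in a library, their values. From lists, at most 3 genes with the smallest unadjusted p are named. Col4a6, Col23a1, Col26a1, Fbln1, Tnmd, Acan, Comp, Ucma, Chad, Hapln1, Matn1, Col2a1, Col11a1 and the promoters and ratios shown were chosen after values were seen. Of the types listed, Col21a1 was not analysed here. Of 36 symbols, all 36 matched the RefSeq table of GRCr8, which was used for names and neighbours only. Promoter windows come from RefSeq, GRCr8.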

Additional observations from a re-analysis of the deposited data

How the results depend on the processing

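No paired analysis was possible because the labels give no replicate numbers, batches or pairing. With all 4 libraries, 32 of the 33 tested genes kept the sign of their log2 fold change under every alternative that gave them a value. The filter of at least 1 CPM gave none for Col4a4, Col19a1 and Col25a1. The exception was Col4a4, at 0.43 with limma on log2(FPKM + 0.1). Over all alternatives, fits without 1 library included, 24 kept it. The count of collagen genes called was 0 higher and 0 lower under other scalings, a filter of at least 1 CPM in at least 2 libraries and limma on FPKM. DESeq2 called 13 higher and 2 lower, with 1107 and 1262 of all genes. With no filter on low counts (20196 genes) edgeR called 5 higher and 2 lower, with 677 (3.35%) and 751 (3.72%) of all genes. The cause was not tested. Leaving out each library in turn, the count of all genes called ran from 0 to 1069 higher and from 0 to 949 lower, and that of the collagen genes from 0 to 16 higher and from 0 to 1 lower. Type medians ran from 0.55 to 2.84 (fibrillar), 0.83 to 1.96 (beaded filament), 0.49 to 2.27 (basement membrane network), 0.030 to 2.72 (FACIT), -1.45 to -0.27 (transmembrane) and 1.13 to 3.08 (other). With limma on log2(FPKM + 1) the transmembrane median was -0.22, that of the basement membrane network 0.36 and that of the others 1.45. Signs turned between these fits for Col1a2 (-0.035 to 1.72), Col8a2 (-0.70 to 3.99), Col16a1 (-0.080 to 2.54), Col17a1 (-0.21 to 0.74), Col24a1 (-0.79 to 4.58), Col4a5 (-0.75 to 1.42), Col6a4 (-1.51 to 1.44), Col4a4 (-2.05 to 6.76) and Col19a1 (-1.91 to 6.96), the last 2 on at most 54 counts. Over 4 scalings, 15 to 19 collagen genes had each osteoarthritis library above each control and 2 to 3 had each below, an alternative chosen after seeing the data. The shares over all genes, 30.0% above and 26.5% below, were computed with TMM alone. The counts under other scalings therefore cannot be read against all genes. The median of all genes ran from 0.05 with upper quartile factors to 0.27 with library size alone. Depth limits the 9 scarcest genes, and FPKM with a pseudocount of 1 shrinks their changes.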
